A study of Mus musculus with 2 samples.

Results

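The genes described here are tau and 9 other genes for proteins that bind microtubules: Mapt (which encodes tau), Map1a, Map1b, Map2, Map4, Map6, Map7, Dcx, Dclk1 and Dclk2. They were taken by symbol from the 32285 genes of the count matrices, and all 10 had UMIs (unique molecular identifiers, counts of single captured RNA molecules) in the kept nuclei of both libraries. Nuclei came from the hippocampus of 8-month-old mice and were profiled by droplet-based single-nucleus 3′ RNA sequencing. All mice carried 5XFAD, transgenes with mutations of familial Alzheimer's disease under the neuronal Thy1 promoter that lead to amyloid plaques. The 5XFAD library was set against a library labelled 5XFAD × MR1 KO, in which MR1, the molecule that presents metabolites to mucosal-associated invariant T cells, is labelled as knocked out. Each library pooled 1 female and 1 male mouse, and no mouse without 5XFAD is in the comparison.

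Microtubule-associated proteins bind the outside of microtubules and set how stable these polymers are, how they are bundled and which motors walk on them. Tau is best known in axons and MAP2 in dendrites, and tau forms the neurofibrillary tangles of Alzheimer's disease, although 5XFAD mice are an amyloid model. Doublecortin (Dcx) is the standard marker of young migrating neurons, and in the adult hippocampus it marks newborn granule cells of the dentate gyrus. Transcript levels say nothing of tau phosphorylation or of protein in neurites.

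Mr1 RNA went against the label. The gene had 33 UMIs in the kept nuclei of the 5XFAD library and 66 in those labelled as knockout, a ratio of CPM of 2.01 (1.30 to 3.15). A 3′ count outside the deleted part would not register a deletion, and the deleted part is not given in the sources used here, so the second library is called "the library labelled MR1 knockout" throughout. The libraries also differed in quality. The 5XFAD library had 12097 kept nuclei with 56740843 UMIs, a median of 3704, and the other had 17257 with 56490761, a median of 2518. Of all barcodes, 35.8% and 8.92% were over the limit of 5% mitochondrial UMIs, and 182 barcode sequences occurred in both libraries. Striatal medium spiny neurons made up 1150 nuclei of the 5XFAD library and 4 of the other, so that over all kept nuclei regional makeup and group cannot be told apart. By sex-linked RNA, 703 of the 1150 were assigned to the male and 5 to the female. Of 93 choroid plexus nuclei in the other library, 48 were assigned to the male and 0 to the female. The mice of a library thus differed in makeup too, and in the male pair makeup and group cannot be told apart either. The 9 classes compared below had at least 200 nuclei in each library. Markers of choroid plexus summed to 239 and 1440 CPM within dentate granule neurons of the 5XFAD library and the library labelled MR1 knockout, and to 641 and 3198 CPM within oligodendrocytes. Markers of striatal medium spiny neurons were higher in the 5XFAD library within all 9 classes. They summed to 496 and 298 CPM within dentate granule neurons and to 667 and 170 CPM within oligodendrocytes. The part of both marker sets in the results was not tested.

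Levels are given as CPM, counts of the gene scaled to the total UMIs of the class, and intervals are exact Poisson intervals for CPM and exact conditional binomial intervals for ratios, all at 95%. They cover counting error only. With 1 library per group there is no test between the groups, nuclei are not replicates, and the mice of a library share a capture. A ratio is the CPM of the library labelled MR1 knockout divided by that of the 5XFAD library. Highest, lowest and the order of levels refer to the 9 compared classes, and other classes and clusters are named where they are meant.

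The 3 genes of the doublecortin family had different cell profiles and different ratios between the libraries, so the bases just before their gene starts are shown. They are from RefSeq promoters on GRCm38.p6, read 5′ to 3′ on the strand of the gene, with capitals for the GC box (GGGCGG, either strand), and only bases before the annotated gene body are printed. Dcx lies at chrX:143855842-143933311 on the minus strand, and the 158 bases at chrX:143933312-143933469 hold 1 CpG and no GC box. Dclk1 lies at chr3:55242364-55539068 on the plus strand, and the 250 bases at chr3:55242114-55242363 hold 4 CpG and no GC box. Dclk2 lies at chr3:86786151-86920852 on the minus strand, and the 250 bases at chr3:86920885-86921134 hold 21 CpG and 2 overlapping GC boxes.
Dcx: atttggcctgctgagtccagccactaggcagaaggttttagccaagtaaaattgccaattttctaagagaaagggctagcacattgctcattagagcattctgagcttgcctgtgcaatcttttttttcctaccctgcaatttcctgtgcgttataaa
Dclk1: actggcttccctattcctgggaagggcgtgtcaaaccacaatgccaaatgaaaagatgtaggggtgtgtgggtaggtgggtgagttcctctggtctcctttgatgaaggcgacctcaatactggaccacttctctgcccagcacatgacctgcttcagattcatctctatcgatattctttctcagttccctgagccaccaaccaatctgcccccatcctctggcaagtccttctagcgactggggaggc
Dclk2: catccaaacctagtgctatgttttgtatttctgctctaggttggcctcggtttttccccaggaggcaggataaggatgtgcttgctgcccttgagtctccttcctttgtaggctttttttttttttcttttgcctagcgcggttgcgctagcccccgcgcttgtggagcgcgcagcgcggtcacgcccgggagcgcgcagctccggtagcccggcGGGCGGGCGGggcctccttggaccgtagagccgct
Of all 32851 promoters of the table, 32.7% hold a GC box in the 250 bases before the RefSeq start. In the 158 of these bases farthest from that start, the share is 17.8%. The median over promoters is 6 CpG in the 250 bases and 3 in those 158. The G+C share is 42.4% before Dcx, 52.4% before Dclk1 and 60% before Dclk2, against a median of 52.4% in 250 bases. These are counts of letters and were not related to the RNA values.

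As a share of all RNA of a class, tau RNA was highest among the 9 compared classes in oligodendrocytes, the myelin-forming cells, and not in neurons. Mapt (chr11:104231390-104332090, plus strand) stood at 895 CPM (842 to 950) in oligodendrocytes of the 5XFAD library and at 1012 CPM (950 to 1078) in those of the library labelled MR1 knockout. In the 5 neuronal classes of both libraries it stood between 206 and 292 CPM. Oligodendrocytes were 3.24 times (3.02 to 3.49) above the highest neuronal class, CA2/CA3 pyramidal neurons, in the 5XFAD library, and 3.47 times (3.22 to 3.74) above it in the other. By mouse, the oligodendrocyte level was 1084 CPM in the 5XFAD female, 790 in the 5XFAD male, 1108 in the female and 933 in the male labelled MR1 knockout. All 4 mice were above the neuronal range.

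The order of the other classes for Mapt was closer in the 5XFAD library than in the other. In the 5XFAD library the intervals of neighbours overlapped from CA2/CA3 neurons (276 CPM) down to dentate granule neurons (206 CPM), with precursors of oligodendrocytes (264 CPM) and astrocytes (212 CPM) among them. In the library labelled MR1 knockout, CA2/CA3 neurons (280 to 303 CPM) did not overlap the next class, inhibitory neurons (253 to 278 CPM). Astrocytes (124 to 201 CPM) there stood below dentate granule neurons (218 to 238 CPM). Microglia, the immune cells of the brain, were lowest, at 112 CPM (80.4 to 152) and 110 CPM (89.2 to 135). Part of the difference between cell types is set by the scale. Oligodendrocyte nuclei were small libraries, with medians of 1314 and 962 UMIs, against 3432 and 1979 in dentate granule neurons and 6140 and 4223 in CA2/CA3 neurons. In UMIs per nucleus Mapt stood at 1.33 and 1.06 in oligodendrocytes, within the 0.805 to 2.02 of the neuronal classes in the 5XFAD library and the 0.513 to 1.49 in the other. After thinning each nucleus to 1000 UMIs, 56.6% (52.6 to 60.6) and 63.7% (58.9 to 68.3) of oligodendrocytes had a Mapt UMI, against 18.1% to 24.6% and 19.5% to 27.8% in the neuronal classes. Thinning left out 197 and 500 oligodendrocytes with fewer UMIs, and before thinning the oligodendrocyte shares were 65.6% and 60.4%. Microglia, with medians of 1291 and 901 UMIs, had a Mapt UMI in 8.00% and 7.61% of thinned nuclei and in 12.4% and 10.3% before.

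Map7, which encodes a protein that recruits kinesin-1 to microtubules, also stood highest in oligodendrocytes among the 9 compared classes. It stood at 638 CPM (593 to 685) and 615 CPM (567 to 666) in oligodendrocytes, against 77.9 to 143 CPM in the neuronal classes of both libraries. Oligodendrocytes were 5.43 times (4.93 to 5.97) above CA2/CA3 neurons in the 5XFAD library and 4.29 times (3.89 to 4.74) above them in the other. In UMIs per nucleus they were above all 5 neuronal classes in the 5XFAD library (0.949 against 0.395 to 0.859), and below CA2/CA3 neurons in the other (0.647 against 0.731). Over the 9 classes, among 8574 genes with enough UMIs, Map7 was the gene whose profile of log2(CPM + 1) was most like that of Mapt, with Pearson's r = 0.97. That value describes 9 classes which share libraries and rests on 1 high class. Heatr3 and Usp31 followed for Mapt (0.97 and 0.96), and Dixdc1 and Gm16068 for Map7 (both 0.96).

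**Figure D1:**
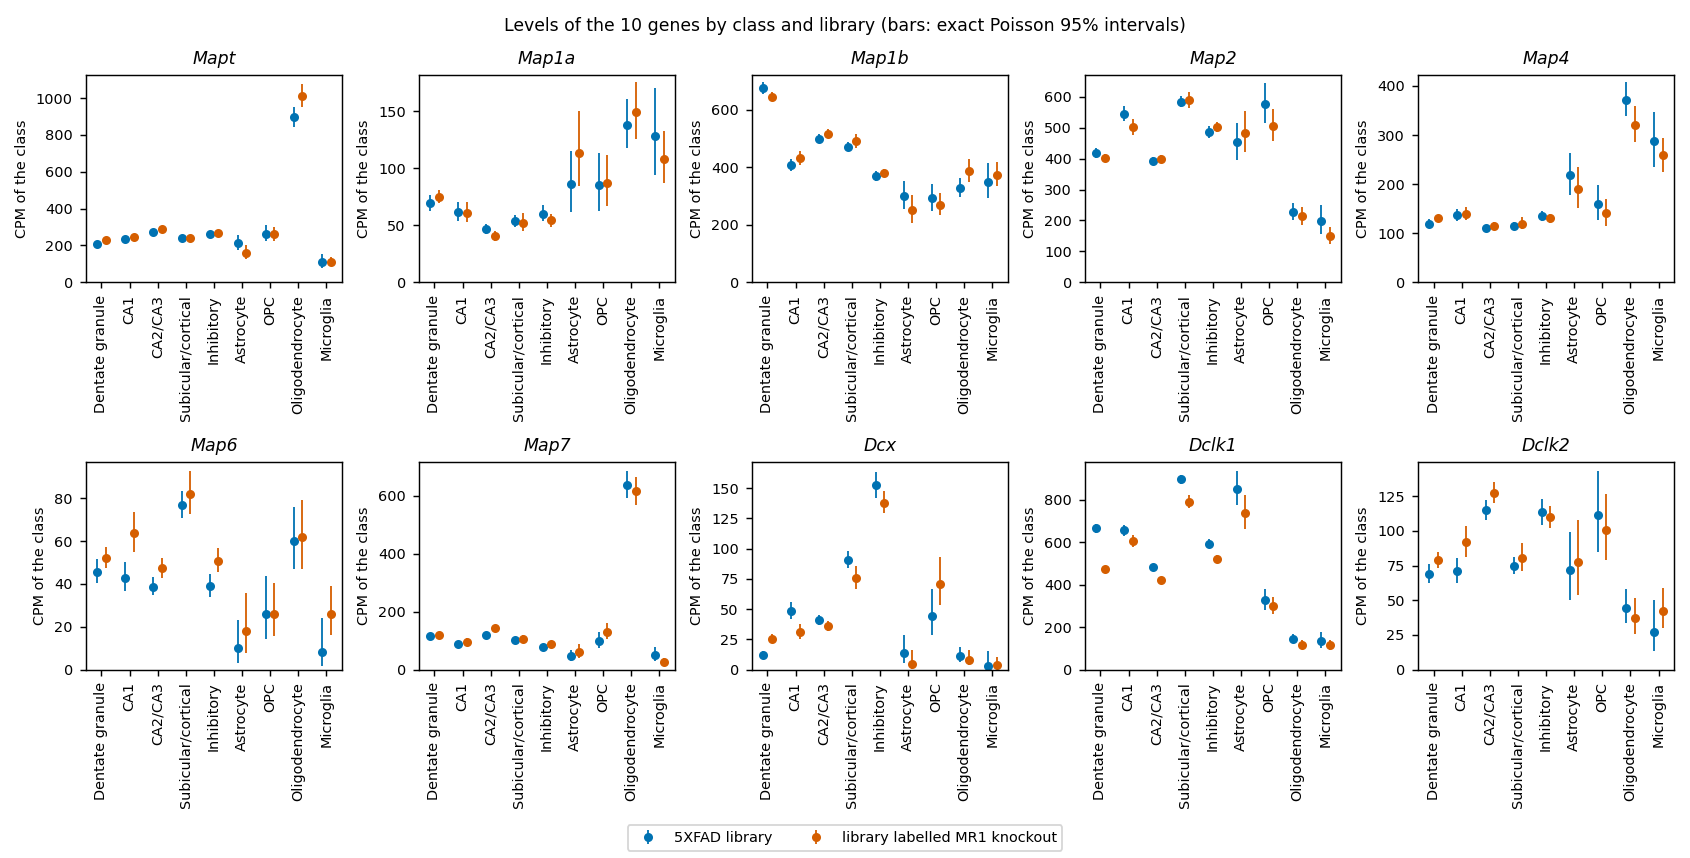
Level of each of the 10 genes (CPM of the class, linear axes from 0, a scale of its own per gene) in the 9 compared classes, with the 5XFAD library in blue and the library labelled MR1 knockout in orange. Bars are exact Poisson 95% intervals. Mapt and Map7 stand highest in oligodendrocytes, at 895 and 1012 CPM and at 638 and 615 CPM, and Dcx stands highest in inhibitory neurons, at 152 and 138 CPM.

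Markers show what these oligodendrocyte nuclei hold. The 12 oligodendrocyte markers summed to 15101 and 15459 CPM there and to 596 and 617 CPM in dentate granule neurons. The 10 dentate granule markers summed to 598 and 630 CPM in oligodendrocytes and to 3091 and 2820 CPM in their own class. An antisense gene inside Mapt, Gm11659, had 2548 and 2759 UMIs in the kept nuclei and stood at 148 and 136 CPM in oligodendrocytes. Whether reads were counted by strand is not given in the sources used here, so its reads and those of Mapt cannot be told apart. The same holds for Ppip5k1 with Map1a (4743 and 4791 UMIs), Gm10558 with Map2 (1306 and 1219), Gm48249 with Map7 (552 and 557), and Gm42609 and Gm21954 with Dclk1 (1652 and 1436, 1405 and 1078).

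Along the oligodendrocyte lineage the members changed at different steps. Mapt stood at 264 and 260 CPM in precursors, at 899 (699 to 1138) and 800 (662 to 957) CPM in committed precursors, the step between precursor and myelinating cell, and at 895 and 1012 CPM in oligodendrocytes. Committed precursors were thus 3.41 times (2.52 to 4.58) and 3.07 times (2.42 to 3.88) above precursors. This class held 30 and 87 nuclei. Map1b, which encodes an early axonal protein of growing neurites, peaked in committed precursors, at 1668 (1391 to 1983) and 954 (804 to 1125) CPM, against 293 and 270 CPM in precursors and 327 and 387 CPM in oligodendrocytes. Its ratio between the libraries in this class was 0.572 (0.447 to 0.732). Map2, the dendritic protein, also peaked there, at 1081 and 847 CPM, and oligodendrocytes stood at 0.211 (0.164 to 0.273) and 0.252 (0.201 to 0.316) times that level. Map7 in committed precursors differed between the libraries, at 365 (242 to 527) and 121 (71.7 to 191) CPM from 28 and 18 UMIs. Dclk1 in committed precursors differed the other way, at 143 (71.5 to 256) and 302 (221 to 405) CPM from 11 and 45 UMIs.

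**Figure D2:**
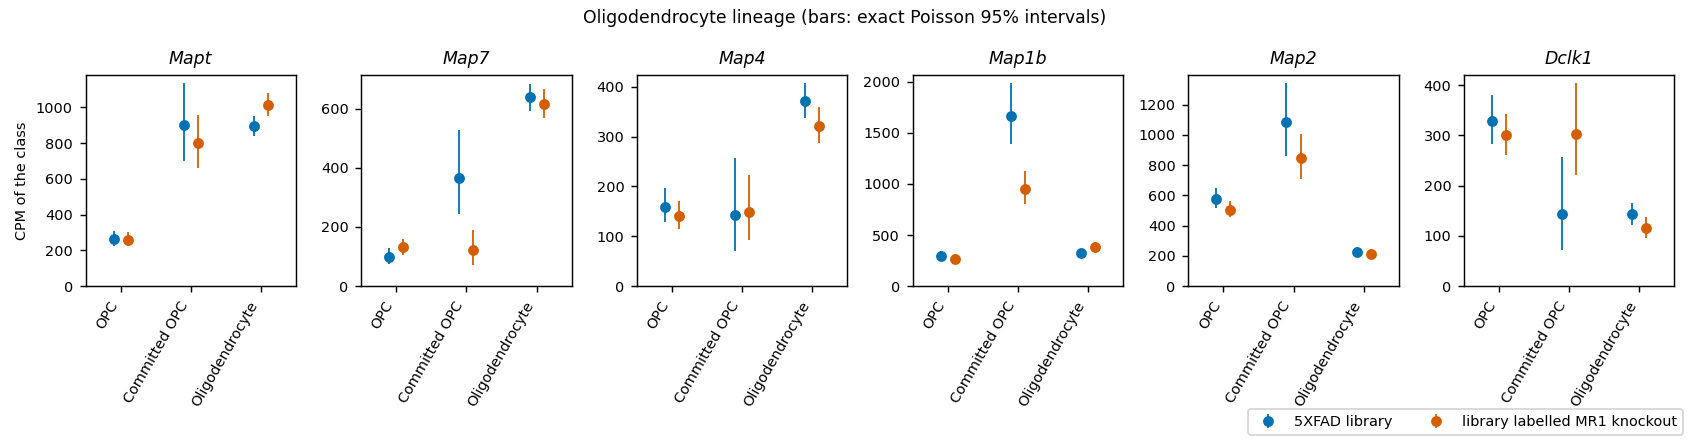
Level (CPM of the class, linear axes from 0) of 6 of the genes in oligodendrocyte precursors (OPC), committed precursors and oligodendrocytes, by library, with exact Poisson 95% intervals. Mapt is at 899 and 800 CPM in committed precursors against 264 and 260 CPM in precursors, and Map1b and Map2 are highest in committed precursors in both libraries.

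Among the structural proteins of dendrites and axons, Map2 was broad. Among the 9 compared classes it was highest in subicular or cortical excitatory neurons, at 583 and 589 CPM, and lowest in microglia, at 200 and 149 CPM, with oligodendrocytes next at 228 and 213 CPM. Oligodendrocyte precursors (578 and 506 CPM) and astrocytes (454 and 483 CPM) stood within the range of the neuronal classes, 391 to 583 and 398 to 589 CPM. Map1b was highest among these classes in dentate granule neurons, below its level in committed precursors, at 676 (655 to 698) and 645 (629 to 662) CPM, with no overlap with the interval of CA2/CA3 neurons, next in order at 499 and 517 CPM. Map6, which encodes a protein that keeps microtubules stable in the cold, was highest in subicular or cortical neurons, at 77.0 and 82.2 CPM, and lowest in astrocytes and microglia, at 9.99 and 18.2 CPM and at 8.20 and 25.8 CPM.

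Map4, the widely expressed member of the tau and MAP2 family, and Map1a, a protein of mature dendrites, had higher CPM in oligodendrocytes and microglia than in neurons. Map4 stood at 372 and 321 CPM in oligodendrocytes and at 287 and 258 CPM in microglia, against 110 to 139 CPM in the neuronal classes of both libraries. Precursors of oligodendrocytes were near the neurons for Map4, at 160 (128 to 197) and 140 (115 to 170) CPM, beside 137 and 139 CPM in CA1 neurons. Map1a stood at 138 and 149 CPM in oligodendrocytes and at 129 and 108 CPM in microglia, against 40.8 to 75.3 CPM in neurons. The order turns in UMIs per nucleus. Map1a had 0.205 and 0.157 UMIs per oligodendrocyte, below the neuronal ranges of 0.273 to 0.368 and 0.170 to 0.294. Map4 had 0.553 and 0.338, within the neuronal ranges of 0.467 to 0.816 and 0.294 to 0.670. The profiles of Map1a and Map4 had r = 0.94 over the 9 classes, and the genes most like them were Vcp for Map1a (0.99) and Ypel5 for Map4 (0.99), on the CPM scale.

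Map1a also followed RNA quality. In barcodes over the mitochondrial limit its CPM was 3.70 times that of the kept nuclei in the 5XFAD library and 2.65 times in the other, whereas the other 9 genes ranged from 0.575 to 1.39 times and from 0.567 to 1.24 times. An unnamed cluster of 608 and 270 nuclei, with a median of 677 UMIs and leading genes such as Cst3, Hsp90aa1 and Gapdh, had the highest Map1a of the clusters with at least 50 nuclei in a library, at 360 (306 to 421) and 234 (172 to 310) CPM. Map1b was also high there, at 985 and 881 CPM. The part of RNA quality in the glial levels of Map1a was not tested.

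In the doublecortin family, Dcx was highest in inhibitory neurons in these adult nuclei, and not in dentate granule neurons. It stood at 152 (142 to 164) and 138 (129 to 147) CPM in inhibitory neurons and at 90.4 and 75.8 CPM in subicular or cortical excitatory neurons. CA1 and CA2/CA3 neurons stood at 48.4 and 30.9 CPM and at 40.7 and 36.0 CPM, and dentate granule neurons at 12.1 and 25.6 CPM. Microglia, at 1 and 3 UMIs, stood at 2.73 and 3.52 CPM. In nuclei thinned to 1000 UMIs, 12.8% and 12.1% of inhibitory neurons had a Dcx UMI, 1.78% and 2.26% of dentate granule neurons, and 0.57% (0.01 to 3.14) and 0% of microglia. Before thinning these shares were 44.2% and 37.1%, 4.19% and 5.35%, and 0.413% and 0.395%, at the depths given above and at medians of 4232 and 3313 UMIs in inhibitory neurons. The 0 in thinned microglia has an exact binomial upper bound of 1.33%, a bound on nuclei with a UMI at this depth and not on nuclei that express the gene. Frmd3 had the profile most like that of Dcx (r = 0.997 over the 9 classes), followed by Atp8b2 (0.99) and Nipal2 (0.97).

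Dclk1 and Dclk2 encode kinases with doublecortin domains. Dclk1 was highest in subicular or cortical neurons, at 894 and 790 CPM, and astrocytes followed at 851 (772 to 936) and 738 (660 to 823) CPM, with intervals that overlap those of the highest class. Oligodendrocytes and microglia stood at 143 and 115 CPM and at 134 and 115 CPM. The cluster with the highest Dclk1 in the 5XFAD library was unnamed, led by Pdzrn3, Npsr1 and Rorb, with 590 and 640 nuclei, and stood at 1244 (1212 to 1276) and 766 (738 to 795) CPM. Fam120c and Ppargc1a had the profiles most like that of Dclk1 (0.98 and 0.97), and Gm21954, which overlaps Dclk1 on the other strand, was next (0.97). Dclk2 was highest in CA2/CA3 neurons, at 115 and 127 CPM, with inhibitory neurons at 114 and 110 CPM.

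Between the libraries most of these genes differed little. Of 90 pairs of member and class, 77 had at least 100 UMIs over both libraries. Of these, 39 had a ratio above 1 and 38 below, whereas 62.7% of all pairs of gene and class were above 1. Past 0.5 on the log2 scale, about 1.4-fold, 2 pairs were higher in the library labelled MR1 knockout, Dcx in dentate granule neurons and Map6 in CA1 neurons. Over all genes and classes 7.87% of pairs were that far higher and 2.93% that far lower. In the lower direction there was 1 pair, Dcx in CA1 neurons. The median log2 ratio was 0.01 over the 77 pairs and 0.08 over all 61733 pairs of gene and class. Counted against the median gene of each class, 20 of the 77 pairs were above and 2 were at least 1.4-fold lower. Members past 1.4-fold were thus not more frequent than genes in general.

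By class, the share of genes at least 1.4-fold higher and lower can be set beside the members. In CA2/CA3 neurons 5.2% were higher and 1.54% lower, in subicular or cortical neurons 6.9% and 2.25%, and in inhibitory neurons 5.69% and 1.73%, with 0 of 10 members past either bound in each. In the glial classes also no counted member was past a bound. There the shares were 8.31% and 7.51% in astrocytes (5 members counted), 8.71% and 3.05% in oligodendrocytes (8), 8.04% and 3.42% in oligodendrocyte precursors (8), and 7.76% and 6.51% in microglia (6). Over all kept nuclei they were 9.76% and 3.35%, again with 0 of 10 members.

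Mapt itself differed by little in neurons. Its ratio was 1.11 (1.03 to 1.19) in dentate granule, 1.03 (0.932 to 1.14) in CA1, 1.06 (0.999 to 1.12) in CA2/CA3, 0.986 (0.906 to 1.07) in subicular or cortical and 1.02 (0.951 to 1.1) in inhibitory neurons. In oligodendrocytes it was 1.13 (1.04 to 1.23), with 1.02 in the females and 1.18 in the males. The lowest log2 ratio of Mapt over the 9 classes was -0.41, in astrocytes, at 212 (173 to 256) and 159 (124 to 201) CPM. Over all kept nuclei Mapt stood at 257 and 268 CPM. The median log2 ratio of all genes in dentate granule neurons was 0.14, close to the 0.15 of Mapt there. In UMIs per nucleus Mapt was lower in the library labelled MR1 knockout in all 5 neuronal classes, with a median log2 ratio of -0.44, beside -0.40 over all genes and the 9 classes. Fewer UMIs per nucleus and less RNA of a gene cannot be told apart on that scale.

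Dcx moved in opposite directions in 2 hippocampal neuron classes. In dentate granule neurons it had 70 and 237 UMIs, 12.1 (9.42 to 15.3) and 25.6 (22.4 to 29.1) CPM, a ratio of 2.12 (1.62 to 2.81). By mouse it stood at 12.4 CPM in the 5XFAD female, 10.1 in the 5XFAD male (6 UMIs), 25.1 in the female and 29.7 in the male labelled MR1 knockout. The point values of both mice labelled MR1 knockout were above those of both 5XFAD mice, of which the male rests on 6 UMIs. Dcx stood at 0.0474 and 0.0577 UMIs per nucleus, a smaller difference. Among all genes in dentate granule neurons 15.5% were at least 1.4-fold higher and 4.99% lower, the largest share of higher genes of the 9 classes. In CA1 neurons Dcx had 176 and 91 UMIs, 48.4 and 30.9 CPM, a ratio of 0.639 (0.490 to 0.827). There the mice stood at 50.1 and 44.3 CPM in the 5XFAD library, female and male, and at 34.5 and 24.9 CPM in the other, both below the point values of the 5XFAD mice. Counting intervals of single mice overlapped, with 31.5 to 60.6 CPM in the 5XFAD male and 25.1 to 46.4 CPM in the female labelled MR1 knockout. This was a class in which 2.02% of genes were at least 1.4-fold lower. The CA1 class was a single cluster of 608 and 612 nuclei, led by Pde11a, Ndst3, 2600014E21Rik, Man1a and Dcn. Its 10 leading genes also held Cpne7, a marker of the CA2/CA3 set. Values for CA1 neurons here are those of this cluster and may not hold for CA1 neurons at large. An unnamed cluster of 1133 and 1332 nuclei, with 3 CA1 markers among its top 50 genes, was not counted in it. The difference between the 2 classes was not tested.

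The dentate value depends on which granule neurons were counted. Different clusters held most of the class, with 82.4% of its nuclei in cluster 11 in the 5XFAD library and 76.7% in cluster 20 in the library labelled MR1 knockout. Within cluster 11 Dcx stood at 11.5 and 23.9 CPM, a ratio of 2.07 (1.45 to 2.98). Within cluster 20 it stood at 17.1 and 26.4 CPM, from 10 and 168 UMIs, a ratio of 1.54 (0.816 to 3.27). Dcx UMIs were spread thinly over nuclei: 62 of 1478 granule nuclei (4.19%, 3.23 to 5.35) and 220 of 4110 (5.35%, 4.68 to 6.09) had at least 1, and the most in 1 nucleus was 3 and 2. No cluster took the name of immature neurons. The class differed in depth as well, with medians of 3432 and 1979 UMIs. The 13 markers of inhibitory neurons, the class with the highest Dcx, summed to 1797 and 2045 CPM in dentate granule nuclei, and to 16488 and 15758 CPM in inhibitory neurons. Their part in the Dcx value was not tested.

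Other genes of young neurons gave a mixed picture in dentate granule neurons. Of the 12 genes of the list, 7 had at least 100 UMIs there, 5 above and 2 below a ratio of 1, with 4 at least 1.4-fold higher and 1 lower. The shares over all genes of this class were 15.5% higher and 4.99% lower. Calb2 (calretinin, found in young granule cells and in interneurons) stood at 4.49 and 16.0 CPM, a ratio of 3.56 (2.34 to 5.63). Sox11, a transcription factor of newborn neurons, stood at 38.0 and 65.9 CPM, a ratio of 1.73 (1.48 to 2.03). Neurod1, a granule lineage factor, stood at 9.84 and 15.6 CPM, a ratio of 1.58 (1.15 to 2.19). Dpysl5 (also known as Crmp5), present in young axons, went the other way, at 11.4 and 4.43 CPM, a ratio of 0.389 (0.256 to 0.582), as did Igfbpl1, with 17 and 3 UMIs. Calb2 was above 1 in all 8 classes where it had a ratio, from 1.84 (1.23 to 2.79) in inhibitory neurons to 4.08 (1.47 to 15.7) in microglia, and at 2.67 (2.34 to 3.04) over all kept nuclei, so its higher level was not particular to dentate granule neurons. Dpysl3, a relative of Dpysl5, had a ratio of 1.21 (0.907 to 1.62) in dentate granule neurons.

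**Figure D3:**
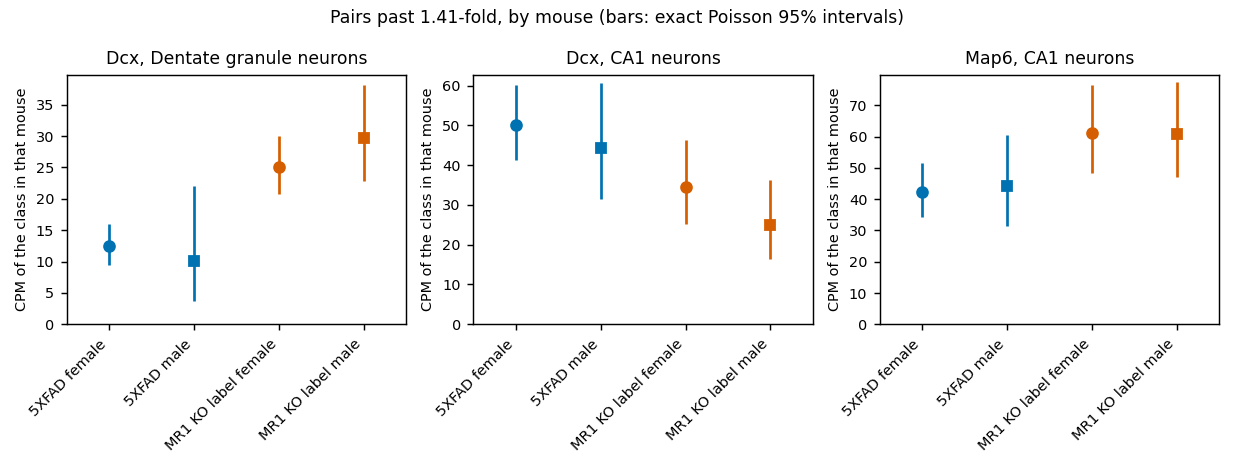
Level (CPM of the class in that mouse, linear axes from 0) of the 3 pairs of gene and class past 1.4-fold, in the female (circles) and male (squares) of the 5XFAD library (blue) and of the library labelled MR1 knockout (orange), with exact Poisson 95% intervals. Nuclei were assigned to a mouse by sex-linked RNA, and the mice of a library share a capture. For Dcx in dentate granule neurons both mice labelled MR1 knockout (25.1 and 29.7 CPM) stand above both 5XFAD mice (12.4 and 10.1 CPM), and for Dcx in CA1 neurons they stand below.

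Map6 was higher in the library labelled MR1 knockout in 7 of the 8 classes with a ratio, and past 1.4-fold in CA1 neurons and in microglia. In microglia it rested on 3 and 22 UMIs, too few to be counted, with a log2 ratio of 1.66. In CA1 neurons it had 156 and 188 UMIs, 42.9 (36.5 to 50.2) and 63.9 (55.1 to 73.7) CPM, a ratio of 1.49 (1.20 to 1.85). The 5XFAD mice stood at 42.3 and 44.3 CPM, female and male, and the mice labelled MR1 knockout at 61.2 and 61.0 CPM. These point values lie apart, but counting intervals overlap, with 31.5 to 60.6 CPM in the 5XFAD male and 47.2 to 77.6 CPM in the male labelled MR1 knockout. It stood at 0.257 and 0.307 UMIs per nucleus, under 1.4-fold. In CA1 neurons 4.62% of genes were at least 1.4-fold higher. The larger unnamed cluster with CA1 markers was not counted here either. The ratio of Map6 was 1.31 (1.09 to 1.57) in inhibitory neurons, above 1 in the females and at 0.921 in the males, so that the mice did not share a direction there. It was 1.22 (1.05 to 1.42) in CA2/CA3 neurons, 1.14 in dentate granule and 1.07 in subicular or cortical neurons.

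Dclk1 was lower in the library labelled MR1 knockout in all 9 classes, in none of them past 0.5 on the log2 scale. The ratio ranged from 0.708 (0.677 to 0.739) in dentate granule neurons to 0.921 (0.866 to 0.980) in CA1 neurons, and in the 4 glial classes its interval included 1. In dentate granule neurons the level was 661 and 703 CPM in the 5XFAD mice, female and male, and 423 and 546 CPM in the mice labelled MR1 knockout. Both mice were lower in 5 of the 8 classes where each mouse had enough UMIs, which are the 5 neuronal classes. In these the ratio by mouse ranged from 0.640 to 0.956. The dentate value just misses the bound of 0.5, at a log2 ratio of -0.499. The dentate difference was smaller within clusters, with ratios of 0.860 (0.811 to 0.911) in cluster 11 and 0.768 (0.683 to 0.865) in cluster 20. It was larger in UMIs per nucleus, 2.61 and 1.06. Over all kept nuclei Dclk1 stood at 691 and 535 CPM, a ratio of 0.775 (0.763 to 0.787), which includes the different makeup of the libraries. The opposite-strand genes had ratios below 1 in dentate granule neurons too, with log2 ratios of -0.75 for Gm21954 and -0.60 for Gm42609.

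Dclk2 did not go with Dclk1. Its ratio was 1.29 (1.09 to 1.54) in CA1 neurons, with 1.33 in the females and 1.35 in the males, 1.15 (1.02 to 1.30) in dentate granule cells, and in inhibitory neurons 0.966 (0.864 to 1.08). Among the dendritic and axonal proteins, Map2 ranged over the neuronal classes from 0.921 (0.861 to 0.986) in CA1 to 1.03 (0.978 to 1.09) in inhibitory neurons, and Map1b from 0.954 (0.916 to 0.994) in dentate granule to 1.06 (0.983 to 1.14) in CA1 neurons. Map1a ranged from 0.877 to 1.08 and Map4 from 0.964 to 1.09. Map7 was at 1.22 (1.12 to 1.33) in CA2/CA3 neurons, but at 1.42 in the females and 0.911 in the males.

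**Figure D4:**
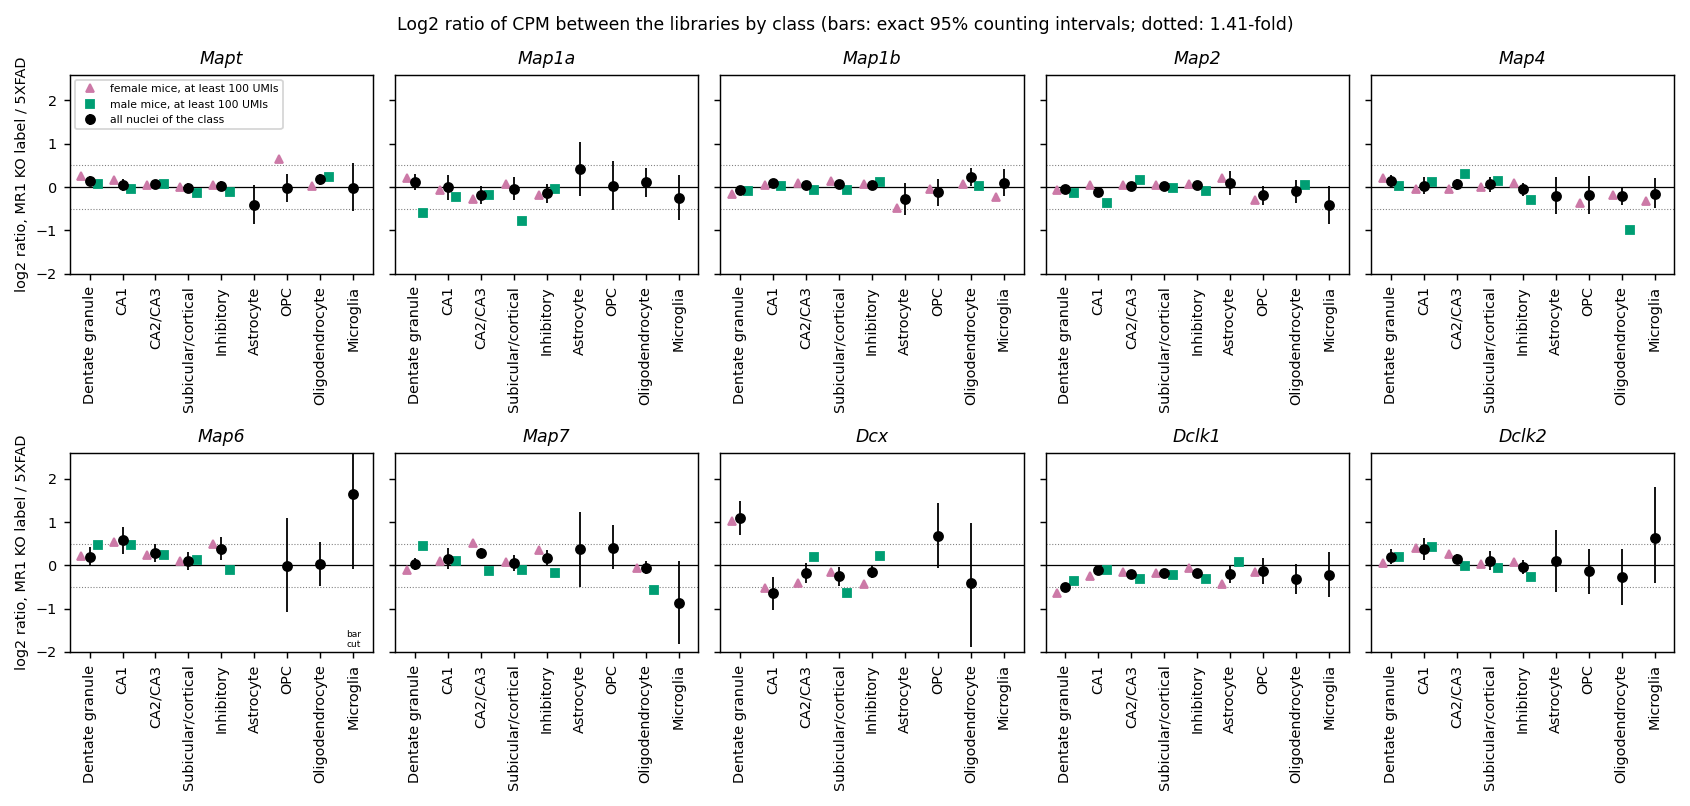
Log2 ratio of CPM, library labelled MR1 knockout over 5XFAD, for each gene in the 9 classes (black, with exact 95% counting intervals), and in the females (triangles) and males (squares) where a mouse pair had at least 100 UMIs. Dotted lines mark 1.4-fold, classes under 20 UMIs have no point, and the bar of Map6 in microglia runs past the axis. Dcx is past the upper line in dentate granule neurons (1.08) and past the lower in CA1 neurons (-0.65), and Dclk1 is below 0 in all 9 classes.

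The polymer itself, tubulin, stood apart from the proteins that bind it. Of the 74 pairs of tubulin gene and class with at least 100 UMIs, 69 had a ratio above 1, 15 were at least 1.4-fold higher and none lower. Their median log2 ratio was 0.35, beside 0.08 over all genes. Of all pairs of gene and class 62.7% were above 1, 7.87% at least 1.4-fold higher and 2.93% lower. The tubulin count moved with the mitochondrial limit, in libraries that differ in mitochondrial share: in nuclei under 1% mitochondrial UMIs 22 of 43 pairs were at least 1.4-fold higher (median 0.50), and without a limit 9 of 84 were higher and 1 lower (median 0.25). After thinning to 1000 UMIs 14 of 44 were higher and 2 lower. In dentate granule neurons all 11 counted tubulins were above 1, with a median of 0.73, beside 0.14 over all genes of this class. Of the 11, 7 were at least 1.4-fold higher, where 15.5% of all genes were. Tuba1a, the main alpha-tubulin of neurons, stood at 117 and 203 CPM there, a ratio of 1.74 (1.59 to 1.90), and Tubb2a, a beta-tubulin, at 116 and 194 CPM, 1.66 (1.52 to 1.82). In oligodendrocytes Tuba1a was at 307 and 461 CPM, a ratio of 1.5 (1.30 to 1.73). Tubg2, a gamma-tubulin of nucleation sites, had a median log2 ratio of 0.43 over 3 classes. In UMIs per nucleus the direction turns, with a median of -0.10 for tubulins and -0.40 for all genes, and relative to the median gene of each class it was 0.28.

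The other lists lay nearer the background, where 7.87% of all pairs were at least 1.4-fold higher and 2.93% lower. Of 140 pairs of other microtubule-binding genes, 89 were above 1, 6 at least 1.4-fold higher and 1 lower, and the median log2 ratio was 0.06. Relative to the median gene of each class 67 were above, so the split rests on the scaling. Camsap3, which caps microtubule minus ends, had the largest median, 0.68 over 3 classes, followed by Map9 (0.36 over 5 classes) and Map7d1 (0.32 over 6 classes). Of 134 pairs of kinases that act on tau, 94 were above 1, 13 at least 1.4-fold higher and none lower, at a median of 0.09, and 74 were above the median gene. Without a mitochondrial limit 9 of 163 kinase pairs were at least 1.4-fold higher and 8 lower. In dentate granule neurons 12 of 21 kinases were above 1 and 9 below, and their median of 0.03 was below the 0.14 of all genes there, where 15.5% of genes were at least 1.4-fold higher. The kinases named by their median over classes were among those above. Ttbk2, a tau tubulin kinase, stood at 8.81 and 18.7 CPM in dentate granule neurons, a ratio of 2.12 (1.54 to 2.96), Csnk1e, a casein kinase, at 9.15 and 21.4 CPM, 2.34 (1.72 to 3.23), and Cdk5 at 19.9 and 30.6 CPM, 1.54 (1.23 to 1.93).

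The list of phosphatases of tau and related enzymes gave 76 of 102 pairs above 1, 8 at least 1.4-fold higher and none lower, at a median log2 ratio of 0.11, and 63 were above the median gene. The scaffold and catalytic subunits of phosphatase 2A, Ppp2r1a and Ppp2ca, had medians of 0.41 and 0.29 over 7 and 9 classes. Kinases and phosphatases of tau thus did not part in direction. Genes that modify or sever microtubules gave 77 of 108 pairs above 1, 6 at least 1.4-fold higher and 2 lower, at a median of 0.09, and 60 were above the median gene. For both lists, the shares of all pairs at least 1.4-fold higher and lower were 7.87% and 2.93%. Tpgs1, of the polyglutamylase complex, and Vash1, a detyrosinating enzyme, had medians of 0.40 and 0.30. In the male mice alone the medians of these 4 lists were -0.01, 0.00, 0.01 and 0.00, whereas that of tubulins was 0.46.

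**Figure D5:**
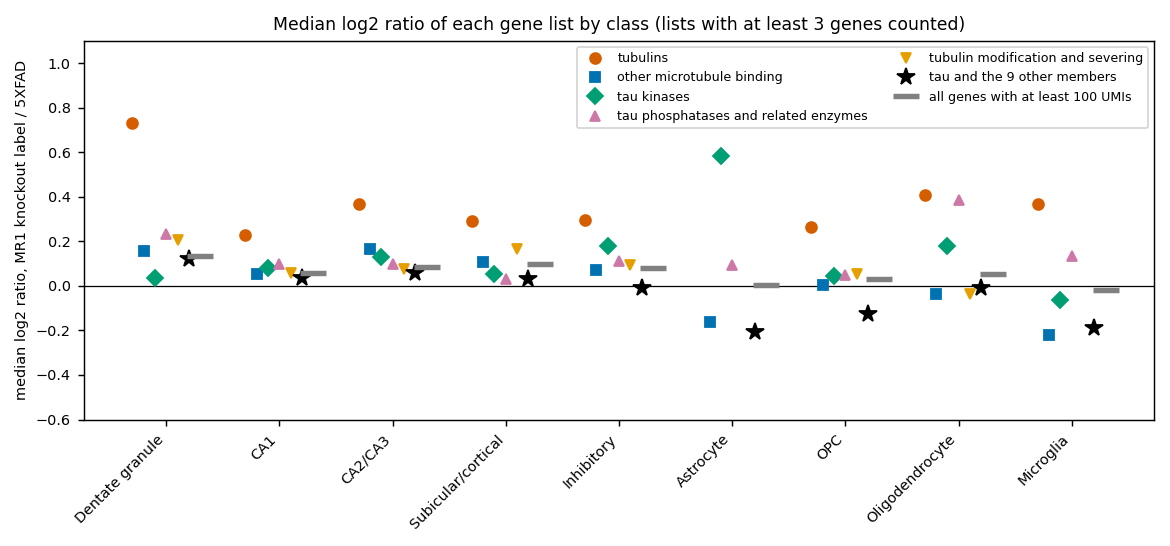
Median log2 ratio of CPM (library labelled MR1 knockout over 5XFAD) of each gene list in the 9 classes, for lists with at least 3 genes counted there. Tubulins (orange) stand above the median of all genes (grey lines) in each of the 8 classes where they are shown, at 0.73 in dentate granule neurons, and tau with the 9 other genes (stars) stands at or below it in all 9.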

How the data were processed

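Nuclear RNA of 2 libraries, 1 per group, was read as the deposited raw counts, whole UMI counts per gene and barcode, made by the authors with Cell Ranger 7.0.0 per the file headers. The submitters' processing notes name mm10 and Seurat, whose role, like the strand and intron settings, is not given in the sources used here. Nuclei with at least 500 genes and under 5% mitochondrial UMIs were kept, 15408 and 22263. Scrublet (scanpy 1.11.5) marked 19.5% and 20.4% as doublets, at a threshold set to the expected share of 0.8% per 1000 nuclei because the automatic threshold marked 22.0% and 5.49%.

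Leiden clustering (2500 variable genes without the members and lists, 40 components, resolution 1.5) gave 35 clusters. A cluster was named by at least 3 markers among its top 50 genes. It stayed unnamed if another class had more markers in its top 10 genes, or if it was shallow without a top 10 marker. With these rules 21 clusters took 15 names, 11 stayed unnamed (32.8% of nuclei in each library) and 3 mixed ones were left out. These rebuilt classes may not match those of the study. For each class the UMIs of a library were summed and divided by their total to give CPM. A ratio needed 20 UMIs and a count of genes 100. Mice were told apart by at least 2 Xist UMIs or at least 1 Y-linked UMI, with none of the other. Median log2 ratios over pairs use a prior count of 0.5. The calculation was tested on simulated data. Coordinates are from GENCODE M21 on GRCm38, called mm10, which matched 32158 of 32285 IDs.

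All 10 members are named, and from each list the 3 genes with the largest absolute median log2 ratio, among those with 100 UMIs in at least 3 classes, and for each member up to 3 genes of like profile. Of the genes this rule names, 2 are not reported here. Other genes of the young neuron list, genes overlapping a member and the clusters were chosen after their values were seen. The members and lists were chosen with earlier results of these data known. RefSeq promoters matched 8 members, and Mapt and Map6 did not match. Alternatives were other limits on genes, mitochondrial UMIs and doublets, each mouse alone, and other scalings.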

Additional observations from a re-analysis of the deposited data

Results flagged for a closer look

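Dcx differed in direction between 2 classes of hippocampal neurons. Its log2 ratio, library labelled MR1 knockout over 5XFAD, was 1.08 in dentate granule neurons and -0.65 in CA1 neurons, and both the female and the male pair had these signs (1.02 and 1.55 in dentate granule, -0.54 and -0.83 in CA1). The opposite signs in every mouse are what singled it out. The CA1 class was a single cluster of 608 and 612 nuclei, led by Pde11a and Ndst3. It leaves out an unnamed cluster of 1133 and 1332 nuclei that held CA1 markers, so the value may not hold for CA1 neurons at large. The difference between the classes was not tested, since each group has 1 library.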

How the results depend on the processing

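Scaling mattered most. In UMIs per nucleus, where shallower nuclei lower every gene, the neuronal median log2 ratio of Mapt went from 0.04 to -0.44 and the median over the 10 members from 0.01 to -0.48, with 0 pairs at least 1.4-fold higher and 35 lower. Against 2 higher pairs in the report, the females alone gave 4 and the males alone 0, where Dcx in dentate granule neurons was under the 100 UMIs needed. Against 1 lower pair, the females gave 2, the males 5, nuclei without a mitochondrial limit 5, counting relative to the median gene 2, and leaving out mitochondrial and the 10 most abundant genes 2. Under the other alternatives the counts of pairs stayed within 1.5 times. The medians ranged from -0.06 to 0.08 for Mapt and from -0.06 to 0.06 for the members, on either side of 0. The barcodes added without the limit were assigned by 15 neighbours and not scored for doublets. Over the alternatives the log2 ratio, here with the prior count of 0.5 that draws the ratio of few UMIs toward 0, ranged from 0.28 to 1.45 for Dcx in dentate granule neurons, from -1.11 to -0.53 for Dcx in CA1, from 0.26 to 0.80 for Map6 in CA1 and from -1.30 to -0.22 for Dclk1 in dentate granule neurons; counting within a single dentate cluster was chosen after seeing the data. No called value changed sign. No paired analysis was possible because each group has 1 library. The number of UMIs, which depends on nuclei and on depth, limits the glial classes, where 5 members in astrocytes and 6 in microglia reached 100 UMIs.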
